A study of Mus musculus with 15 samples.

Results

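The IL-6 family of cytokines and receptors was represented by 10 genes in the raw count matrix of mouse bone marrow-derived macrophages (BMDMs): the receptor chain genes Il6ra, Il6st, Osmr, Lifr, Il11ra1 and Il27ra, and the ligand genes Il6, Osm, Lif and Clcf1. They were chosen by symbol, by matching the Ensembl identifier of each of the 53465 genes in the matrix, and all 10 were found. Of these, 6 (Il6ra, Il6st, Lifr, Il11ra1, Il27ra and Osm) passed a filter on low counts that left 13938 genes for testing, and Osmr, Il6, Lif and Clcf1 did not.

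The BMDMs had been grown from bone marrow for 7 days with M-CSF (20 ng/ml), the growth factor of macrophages, and were then either given no further cytokine (control) or treated for 24 h. The treated groups received IL-4 (10 ng/ml) or IL-13 (40 ng/ml), each either alone (groups IL-4 and IL-13) or together with 40 ng/ml of IL-6 (groups IL-4/IL-6 and IL-13/IL-6). Each of the 5 groups had 3 RNAseq libraries, 15 in all. The study asked how co-addition of IL-6 alters the response of macrophages to IL-4, and the design holds no group with IL-6 alone, so an IL-6 effect was measured only on top of IL-4 or of IL-13. The doses of IL-4 and IL-13 differed. The labels give neither the genotype nor the age of the mice. The study calls the replicates biological, and neither it nor the labels say whether they came from separate animals or from separate cultures of one, so the p-values measure the spread between these libraries.

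Cytokines of this family signal through gp130, the protein of Il6st. IL-6 first binds the IL-6 receptor alpha chain (Il6ra), which has no signaling domain of its own and recruits gp130, and IL-11 does the same through IL-11 receptor alpha (Il11ra1). LIF and CLCF1 signal through a pair of gp130 and the LIF receptor (Lifr), oncostatin M through gp130 with the oncostatin M receptor (Osmr), and IL-27 through gp130 with WSX-1 (Il27ra). All these complexes activate Janus kinases, STAT3 and the SHP2-ERK branch, and they induce SOCS3, which binds gp130 and shuts the signal off.

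On GRCm38, with the GENCODE M21 annotation, the receptor genes lie at chr3:89864059-89913196 on the minus strand (Il6ra), chr13:112464070-112510086 on the plus strand (Il6st), chr15:7090614-7197489 on the plus strand (Lifr), chr15:6813577-6874969 on the minus strand (Osmr), chr4:41699989-41769474 on the plus strand (Il11ra1) and chr8:84030294-84042589 on the minus strand (Il27ra). The ligand genes lie on the plus strand at chr5:30013114-30019981 (Il6), chr11:4236420-4241026 (Osm), chr11:4257557-4272514 (Lif) and chr19:4214238-4223490 (Clcf1). Osmr and Lifr are neighbors on chromosome 15, and Osm and Lif on chromosome 11. RefSeq promoter windows on GRCm38.p6 were matched for 7 of the 10 members (9 windows), and the 250 bases before each start were searched on both strands for TTCNNNGAA and TTCNNNNGAA (the palindromes bound by STAT proteins), GGGCGG (the GC box), CCAAT and TGANTCA (the AP-1 element). Il6st and Lifr are shown because both rose with IL-6, and Il6ra because it had no such change. The windows are chr13:112463820-112464069 on the plus strand for Il6st, chr15:7129322-7129571 and chr15:7140292-7140541 on the plus strand for the upstream and the downstream start of Lifr, and chr3:89913197-89913446 on the minus strand for Il6ra, and capitals mark the motifs.
Il6st: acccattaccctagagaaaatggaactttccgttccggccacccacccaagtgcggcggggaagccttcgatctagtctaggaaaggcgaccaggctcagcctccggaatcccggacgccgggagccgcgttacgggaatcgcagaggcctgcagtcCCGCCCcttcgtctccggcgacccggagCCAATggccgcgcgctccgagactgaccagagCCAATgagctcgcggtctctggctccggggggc
Lifr upstream start: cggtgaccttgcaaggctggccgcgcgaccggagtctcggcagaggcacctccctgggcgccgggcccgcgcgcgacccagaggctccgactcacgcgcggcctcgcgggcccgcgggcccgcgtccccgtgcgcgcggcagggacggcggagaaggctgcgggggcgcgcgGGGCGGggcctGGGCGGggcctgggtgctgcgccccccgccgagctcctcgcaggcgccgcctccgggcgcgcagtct
Lifr downstream start: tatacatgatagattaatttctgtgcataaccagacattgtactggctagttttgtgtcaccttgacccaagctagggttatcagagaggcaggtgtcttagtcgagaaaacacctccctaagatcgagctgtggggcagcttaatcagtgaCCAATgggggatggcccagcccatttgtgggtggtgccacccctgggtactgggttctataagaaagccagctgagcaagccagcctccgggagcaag
Il6ra: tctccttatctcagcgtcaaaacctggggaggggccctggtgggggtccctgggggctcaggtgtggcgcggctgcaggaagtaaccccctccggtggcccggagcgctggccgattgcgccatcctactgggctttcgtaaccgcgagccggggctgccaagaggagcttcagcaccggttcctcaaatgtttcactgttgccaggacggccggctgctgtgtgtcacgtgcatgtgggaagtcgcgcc
The Il6st window held a GGGCGG on the reverse strand whose first base lay 93 bases before the start, and CCAAT at 65 and 33 bases. The upstream window of Lifr held GGGCGG at 78 and 67 bases, the downstream window held CCAAT at 98 bases, and the Il6ra window held none of the motifs. Neither STAT palindrome was found in any of the 9 windows of the members. Il27ra, Osm and Clcf1 had no window and were not searched. Of 32851 promoters of the same length, 7.02% held TTCNNNGAA, 5.85% TTCNNNNGAA, 32.7% GGGCGG, 33.8% CCAAT and 6.75% TGANTCA.

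Summed counts were between 17001352 and 18918686 per library. Replicates varied least in control and IL-4 (biological coefficient of variation 4.49% and 4.54%), and most in IL-4/IL-6 (14.9%) and IL-13 (10.9%). IL-4/IL-6 replicate 2 and IL-13 replicate 1 stood apart from their groups, and values without them are given where they matter. All 8 macrophage markers (Adgre1, Csf1r, Cd68, Mertk, Fcgr1, Itgam, Lyz2 and Cd14) were detected in each group, with a summed normalized CPM (counts scaled to library totals corrected by TMM factors) of 18935 to 21114 in control and 10900 to 12704 in IL-4/IL-6. Over control, 3 of the 8 were called higher and 5 lower in IL-4/IL-6, and 4 and 4 in IL-13/IL-6. Of all tested genes, 72.9% and 64% were called in either direction in these comparisons. Granulocyte, stromal, mast cell and B cell markers were highest in the control libraries, and endothelial and megakaryocyte markers are given beside Lifr. The 8 granulocyte and precursor markers summed to 486 to 575 normalized CPM in control and to 1.61 to 2.68 over all treated libraries. All 8 were called lower in each treated group, against 60.1% to 72.9% of all tested genes called in either direction. The 9 stromal markers summed to 16.9 to 21.7 in control and to at most 0.664 in treated libraries, where Col1a1, Col3a1 and Lum were at 0 throughout. Mast cell and basophil markers summed to 22.7 to 27.1 in control and at most 8.55 elsewhere, and B cell markers to 10.8 to 12.3 and at most 1.66. A comparison over control therefore also compares cultures that differed in these markers, and their part in the results below was not tested. In bulk RNA, fewer cells of a type and less RNA per cell cannot be told apart.

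**Figure D1:**
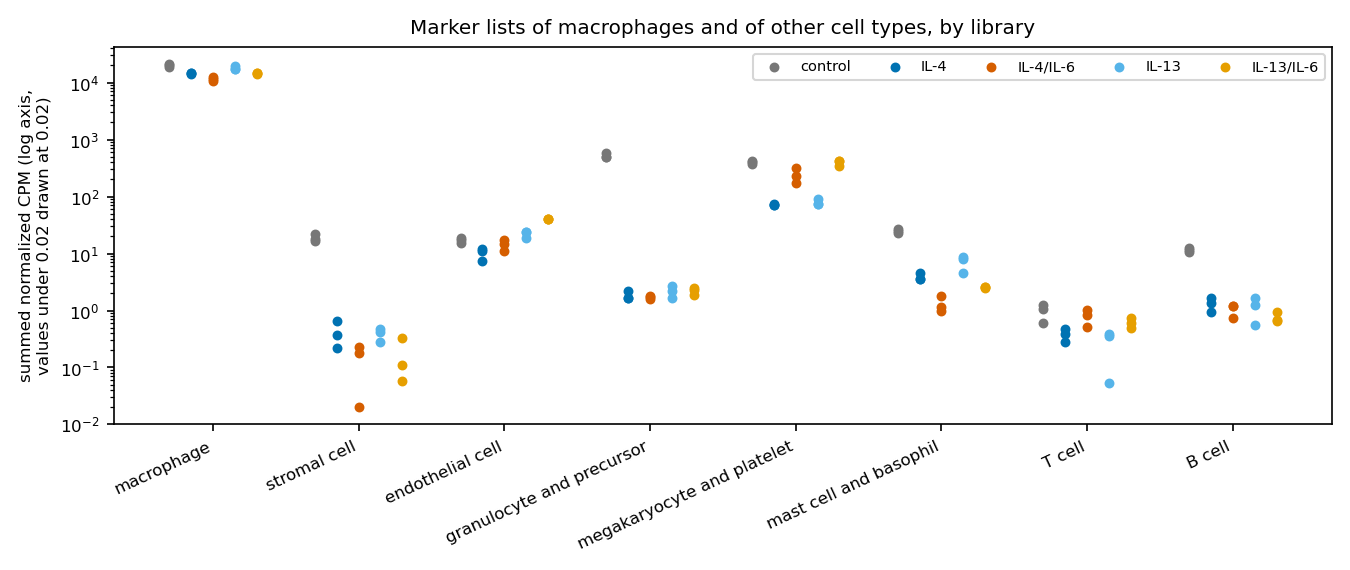
Summed normalized CPM (log axis) of the marker genes of macrophages and of 7 other cell types, with a point for each of the 15 libraries colored by group and sums under 0.02 drawn at 0.02. The granulocyte markers sit at 486 to 575 in control and at 1.61 to 2.68 in all treated libraries.

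Of the 6 tested members, 5 changed with IL-6 on top of either cytokine. Co-addition of IL-6 to IL-4 changed 5 of the 6 tested members, against a background of 39.4% of all tested genes called at an adjusted p under 0.05. Il6st, Lifr and Osm were higher (background 20.7% called higher), and Il11ra1 and Il27ra were lower (background 18.7% called lower). Changes beyond a log2 fold change of 1 were called for 4 of the 6 members (background 11.8%), and the median absolute log2 change was 1.25 over the 6 members and 0.30 over all genes. Co-addition of IL-6 to IL-13, measured in other libraries, changed Il6st, Lifr, Osm, Il11ra1 and Il27ra in those same directions (background 25.6%, of which 12.1% higher and 13.5% lower). Of these, 2 lay beyond a log2 fold change of 1 (background 7.25%), with a median absolute log2 change of 0.64 against 0.21 over all genes. Il6ra was the tested member without a call in either IL-6 comparison. IL-4 over control changed 5 members (background 68%), IL-13 over control 3 (background 60.1%, with Il6st, Lifr and Il11ra1 not called), IL-4/IL-6 over control 6 (background 72.9%) and IL-13/IL-6 over control 6 (background 64%), so that most tested genes were called in each of these comparisons and a count of called members says little about the family. IL-4 and IL-13, which were given at different doses, differed for 4 members (background 12.8%), and IL-4/IL-6 and IL-13/IL-6 for 5 (background 31.3%). The IL-6 effect itself differed between IL-4 and IL-13 for 1 member, Osm (background 7.64%).

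**Figure D2:**
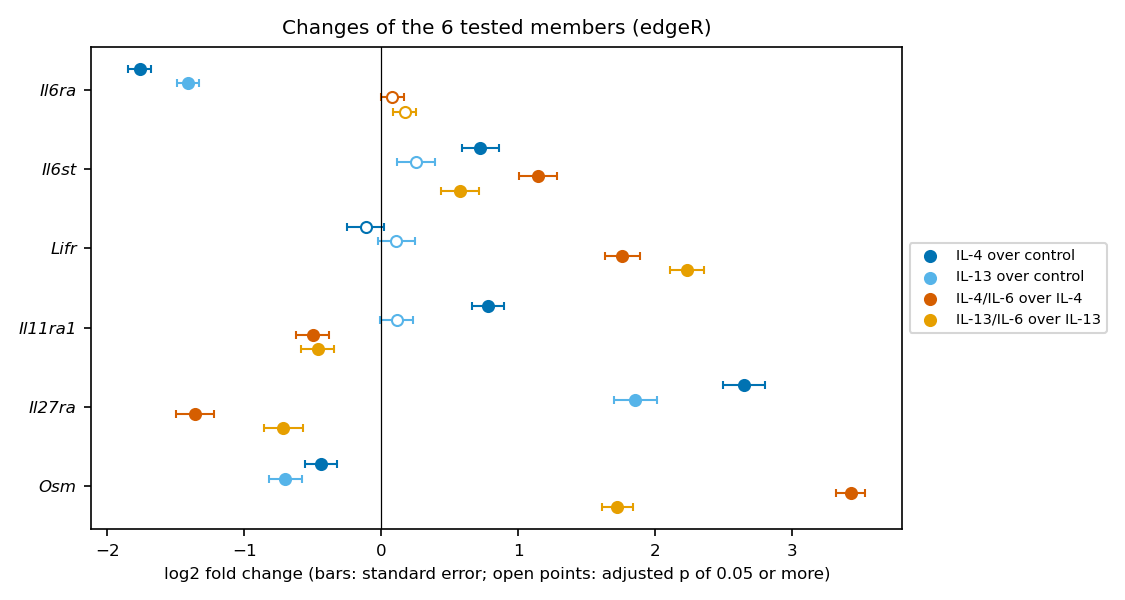
Log2 fold changes of the 6 tested members in 4 comparisons, from edgeR, with bars for the standard error, filled points for an adjusted p under 0.05 and open points for the others. Osm has the largest change with IL-6 on top of IL-4 (3.43), and Il6ra the largest falls over control (-1.76 and -1.41).

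Il6ra, the chain that binds IL-6, was highest in control. Its normalized CPM was 132, 138 and 137 in the control libraries, 39.2, 40.9 and 39.7 with IL-4, and 46.2, 53.7 and 53.2 with IL-13. With IL-6 it was 47.5, 36.8 and 42.4 on top of IL-4, and 58.0, 56.5 and 57.8 on top of IL-13. Every treated library lay far below every control library. Il6ra fell 3.39-fold with IL-4 (log2 fold change -1.76, SE 0.083, adjusted p = 9.54e-12 by the quasi-likelihood F-test of edgeR, Benjamini-Hochberg adjusted over all tested genes, n = 3 per group) and 2.66-fold with IL-13 (-1.41, SE 0.082, adjusted p = 1.89e-10). The level with IL-4 was below that with IL-13 (log2 difference -0.35, SE 0.084, adjusted p = 0.00894), and no library of these groups overlapped. Co-addition of IL-6 gave a log2 change of 0.08 on top of IL-4 (95% interval -0.11 to 0.27, adjusted p = 0.481) and of 0.17 on top of IL-13 (-0.01 to 0.35, adjusted p = 0.152), so any increase was bounded at 0.35 on the log2 scale by these intervals. The IL-4/IL-6 libraries overlapped the IL-4 libraries, whereas the IL-13/IL-6 libraries all lay above those with IL-13, by little. An annotated antisense gene, Gm42809, overlaps 242 exonic bases of Il6ra (2.8%), and whether the counting used strand is not given in the sources used here.

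Il6st, which encodes gp130, was raised by IL-4 and further by IL-6. The control libraries held 141, 129.8 and 140.3 normalized CPM and the IL-4 libraries 236, 225 and 218. With IL-4/IL-6 the values were 527, 381 and 593. The groups did not overlap, and the lowest IL-4/IL-6 value was that of replicate 2, the library that stood apart. Il6st rose 1.65-fold with IL-4 over control (log2 fold change 0.72, SE 0.14, adjusted p = 0.00017) and a further 2.21-fold with IL-6 (1.14, SE 0.14, adjusted p = 2.46e-06, 1.29 without IL-4/IL-6 replicate 2). IL-4/IL-6 stood 3.65-fold above control (adjusted p = 2.1e-09).

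In the IL-13 libraries Il6st was at 131, 181 and 178 normalized CPM, and in the IL-13/IL-6 libraries at 226, 271 and 235. Replicate 1, the IL-13 library that stood apart, lay within the control range, and the other IL-13 libraries lay above it. IL-13 gave a log2 change of 0.25 over control (SE 0.14, 95% interval -0.05 to 0.56, adjusted p = 0.118), which became 0.42 with an adjusted p of 0.012 without replicate 1. IL-6 on top of IL-13 raised Il6st 1.49-fold (log2 fold change 0.58, SE 0.14, adjusted p = 0.00392), or by 0.43 on the log2 scale without IL-13 replicate 1 (adjusted p = 0.0247). IL-13/IL-6 and IL-4 had 244 ± 23.6 and 226 ± 9.42 (mean ± SD, n = 3), with an interval of the log2 difference of -0.19 to 0.41. Between the cytokines, Il6st was higher with IL-4 than with IL-13 by 0.47 (SE 0.14, adjusted p = 0.03), a call that was lost without any 1 of the IL-4 libraries or without IL-13 replicate 1 (adjusted p = 0.0639 to 0.104), and higher with IL-4/IL-6 than with IL-13/IL-6 by 1.04 (SE 0.14, adjusted p = 1.5e-05). The IL-6 effect on top of IL-4 exceeded that on top of IL-13 by 0.57 (SE 0.19, adjusted p = 0.088), a difference that passed the threshold when IL-4/IL-6 replicate 2 was left out (0.73, adjusted p = 0.00178) or IL-13 replicate 1 (0.69, adjusted p = 0.0209).

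The chain that binds IL-6 and the chain that signals were compared on the deposited FPKM scale, which divides by gene length. In control Il6ra had 16.4 ± 0.344 FPKM and Il6st 12.9 ± 0.705 FPKM, a ratio of Il6st to Il6ra of 0.788 ± 0.053 (mean ± SD, n = 3). The ratio was 4.42 ± 0.243 with IL-4, 9.20 ± 1.48 with IL-4/IL-6, 2.48 ± 0.235 with IL-13 and 3.31 ± 0.370 with IL-13/IL-6. The ranges of the 5 groups did not overlap, from 0.731 to 0.836 in control up to 8.07 to 10.9 in IL-4/IL-6. The FPKM was thus slightly higher for Il6ra in control, and higher for Il6st in each treated library. The lengths behind the FPKM were those of all merged annotated exons, 8642 bases for Il6ra and 11099 for Il6st. Which transcript was in excess within a group therefore cannot be read from the ratio, and its change between groups can. The ratio is of mRNA levels, and surface protein was not measured in these files.

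**Figure D3:**
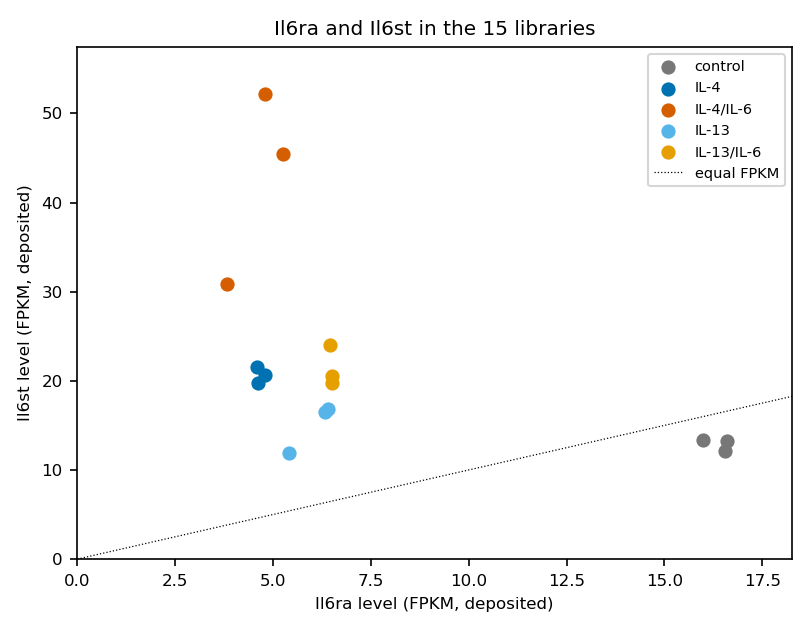
Deposited FPKM of Il6ra (x axis) and Il6st (y axis), with a point for each of the 15 libraries colored by group and a dotted line at equal FPKM. The control libraries lie below the line, at a mean of 16.4 FPKM of Il6ra and 12.9 of Il6st, and the IL-4/IL-6 libraries highest above it, at 4.63 and 42.9.

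Lifr, the chain shared by LIF and CLCF1, was low without IL-6. It had 5.63, 5.76 and 6.84 normalized CPM in control, 5.51, 6.26 and 5.08 with IL-4, and 5.62, 7.04 and 7.01 with IL-13. These 3 groups overlapped. With IL-6 the values were 20.0, 16.4 and 20.6 on top of IL-4 and 32.0, 29.7 and 31.0 on top of IL-13. All IL-6 libraries lay above all others, and the IL-13/IL-6 libraries above the IL-4/IL-6 libraries. Lifr rose 3.39-fold with IL-6 on top of IL-4 (log2 fold change 1.76, SE 0.13, adjusted p = 5.28e-09) and 4.71-fold on top of IL-13 (2.24, SE 0.12, adjusted p = 3.02e-10). IL-4 and IL-13 alone gave log2 changes over control of -0.11 (95% interval -0.42 to 0.19) and 0.11 (-0.19 to 0.41). The level in IL-4/IL-6 was below that in IL-13/IL-6 (log2 difference -0.70, adjusted p = 0.000145), while the difference of the IL-6 effects, -0.48 with SE 0.18, had an adjusted p of 0.136. Among the members Lifr had the lowest FPKM of the tested receptor chains in control (0.589 ± 0.067) and reached 2.80 ± 0.082 FPKM in IL-13/IL-6, which is 0.132 ± 0.017 of the Il6st level there.

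Genes of other cell types moved with Lifr in part when IL-6 was added, but not over all 5 groups. In control, where Lifr was about as low as with IL-4 or IL-13 alone, the endothelial markers summed to 15.5 to 18.8 normalized CPM. The megakaryocyte and platelet markers summed to 371 to 416 there. Of 5 endothelial markers, 3 were tested. Kdr was called higher with IL-6 on top of IL-4 (background 20.7% called higher) and of IL-13 (background 12.1%). The endothelial list summed to 40.2 to 41.1 normalized CPM in IL-13/IL-6 against 18.5 to 23.7 in IL-13. It summed to 11.1 to 17.5 in IL-4/IL-6 against 7.26 to 12.2 in IL-4, with Emcn at 0 in every treated library. Of 5 megakaryocyte and platelet markers, 2 were called higher with IL-6 on top of IL-4 (background 20.7%) and 2 on top of IL-13 (background 12.1%). This list summed to 349 to 422 in IL-13/IL-6 against 72.8 to 89.7 in IL-13, and to 175 to 314 in IL-4/IL-6 against 70.4 to 74.8 in IL-4. In the treated groups Pf4 carried most of the megakaryocyte sums, with mean normalized CPM of 68.7 in IL-4, 235 in IL-4/IL-6, 75.5 in IL-13 and 390.1 in IL-13/IL-6. Its mean was 97.4 in control. Over control, Pf4 was called higher and the other 4 megakaryocyte markers lower in both IL-6 groups. The background called in either direction was 72.9% in IL-4/IL-6 and 64% in IL-13/IL-6. The part of these cell markers in the Lifr result was not tested.

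Osmr, the partner of gp130 for oncostatin M, was at the limit of detection. Its counts were 0, 1 and 4 in the control libraries and 2, 0 and 0 with IL-4/IL-6. Every library of IL-4, IL-13 and IL-13/IL-6 had a count of 0, and a count of 0 allows a level of up to 3 counts, or 0.155 to 0.177 normalized CPM per library over all groups. This limit covers counting error only. In a fit without the filter, no comparison of Osmr was called (adjusted p = 0.147 to 1), and a difference was not detectable at this depth.

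Il11ra1, the IL-11 receptor chain, moved up with IL-4 and down with IL-6. Its normalized CPM was 69.9, 79.5 and 62.3 in control and 120.3, 118 and 126 with IL-4. With IL-4/IL-6 it was 77.5, 104 and 75.4. The IL-4 libraries lay above all others, and replicate 2 was the highest of the IL-4/IL-6 libraries. IL-4 raised Il11ra1 1.72-fold over control (log2 fold change 0.78, SE 0.12, adjusted p = 2.01e-05), and IL-6 lowered that level by a log2 change of -0.50 (SE 0.12, adjusted p = 0.00263, -0.68 without IL-4/IL-6 replicate 2). The remaining difference of IL-4/IL-6 from control, a log2 change of 0.28, had an adjusted p of 0.0431, and of 0.213 without IL-4/IL-6 replicate 2, 0.0956 without control replicate 1, 0.201 without control replicate 3 and 0.054 without IL-13 replicate 3.

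IL-13 left Il11ra1 at 86.5, 66.7 and 75.6 normalized CPM, which overlapped control (log2 change 0.11, 95% interval -0.15 to 0.38, adjusted p = 0.43) and was below IL-4 (the level with IL-4 was higher by 0.67, adjusted p = 0.000902). With IL-13/IL-6 the values were 57.6, 51.7 and 56.9, all below those with IL-13. This was a log2 change of -0.46 (SE 0.12, adjusted p = 0.00828), close in size to that on top of IL-4, and the difference of the IL-6 effects was -0.04 with an interval of -0.41 to 0.34. Over control, IL-13/IL-6 was lower by a log2 change of -0.35 (adjusted p = 0.0183), a call that was lost without control replicate 2 (-0.25, adjusted p = 0.107) or IL-13/IL-6 replicate 2 (-0.30, adjusted p = 0.0732). Of the stretches of 50 bases in Il11ra1 transcripts, 46.3% are shared with the annotated copy Gm13305 and 15.8% with Il11ra2, which had at most 1 and 10 counts in a library, so the assignment of reads among these copies is uncertain.

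Il27ra, the WSX-1 chain of the IL-27 receptor, had the widest range of group means on the log2 scale among the 5 tested receptor members. It had 2.40, 2.44 and 1.91 normalized CPM in control, 14.6, 14.4 and 13.3 with IL-4, and 7.87, 9.52 and 7.11 with IL-13. With IL-6 it had 5.84, 6.07 and 4.61 on top of IL-4, and 4.80, 5.04 and 5.06 on top of IL-13. The libraries of control, IL-13 and IL-4 did not overlap with each other, and the IL-6 libraries lay between control and their cytokine alone. IL-4 raised Il27ra 6.26-fold (log2 fold change 2.65, SE 0.15, adjusted p = 1.24e-10) and IL-13 3.62-fold (1.85, SE 0.16, adjusted p = 2.57e-08), and the level with IL-4 was the higher by 0.79 (adjusted p = 0.000507). IL-6 lowered it 2.56-fold on top of IL-4 (-1.36, SE 0.14, adjusted p = 3.77e-07) and 1.64-fold on top of IL-13 (-0.71, SE 0.14, adjusted p = 0.00105). Both IL-6 groups stayed above control, with log2 fold changes of 1.29 (adjusted p = 2.1e-06) and 1.14 (adjusted p = 1.26e-05), and their difference from each other, 0.15, had an interval of -0.19 to 0.48. The fall with IL-6 differed between the cytokines by -0.64 (SE 0.20, adjusted p = 0.0604). It passed the threshold without IL-4/IL-6 replicate 2 (-0.72, adjusted p = 0.0357) or without IL-13 replicate 2 (-0.77, adjusted p = 0.0266).

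**Figure D4:**
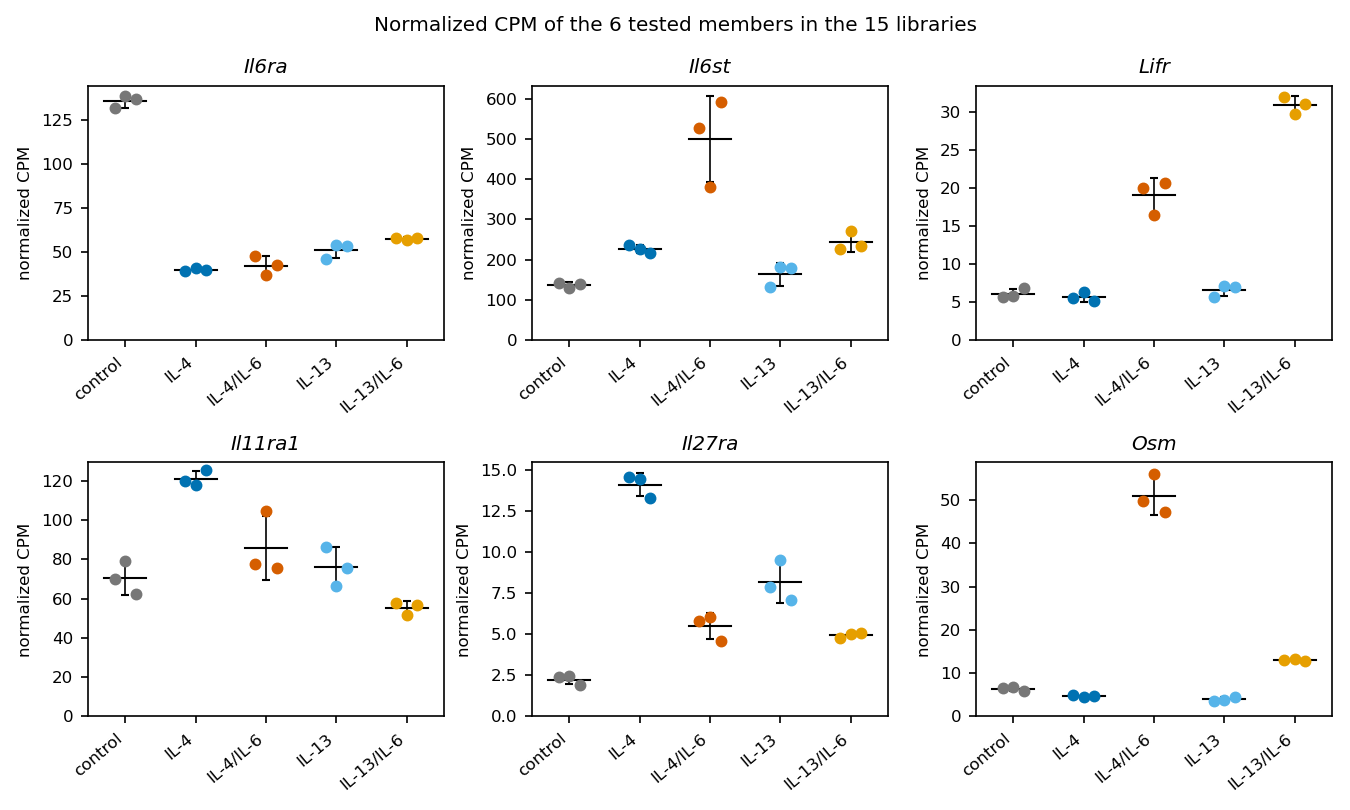
Normalized CPM (y axis, linear) of the 6 tested members in each library of the 5 groups, with lines for the mean and bars for the SD of the 3 replicates. Il6ra is highest in control (136), Il11ra1 and Il27ra in IL-4 (121 and 14.1), Lifr in IL-13/IL-6 (30.9), and Il6st and Osm in IL-4/IL-6 (501 and 51.1).

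Among the ligands, Osm, which encodes oncostatin M, was the one that passed the filter. Its normalized CPM was 6.67, 6.71 and 5.89 in control, 4.92, 4.48 and 4.80 with IL-4, and 3.64, 3.77 and 4.43 with IL-13. With IL-4/IL-6 it was 49.8, 56.1 and 47.3, and with IL-13/IL-6 it was between 12.9 and 13.3 (225, 246 and 231 counts). The IL-4/IL-6 libraries lay far above all others, and the IL-13/IL-6 libraries above those without IL-6. IL-6 raised Osm 10.8-fold on top of IL-4 (log2 fold change 3.43, SE 0.11, adjusted p = 1.14e-13), a change larger in size than that of 98.9% of the tested genes. On top of IL-13 the rise was 3.30-fold (1.72, SE 0.11, adjusted p = 2.8e-09). These effects differed by 1.70 on the log2 scale (SE 0.16, 95% interval 1.36 to 2.05, adjusted p = 2.66e-06). Without IL-6, both cytokines lowered Osm, by a log2 change of -0.44 with IL-4 (SE 0.12, adjusted p = 0.00321, and 0.0531 without the filter) and of -0.70 with IL-13 (SE 0.12, adjusted p = 8.17e-05). The level with IL-4 and that with IL-13 had a log2 difference of 0.26 (95% interval -0.02 to 0.54, adjusted p = 0.188). On the FPKM scale Osm reached 21.2 ± 0.91 in IL-4/IL-6, about the level of Il6st in IL-4 (20.6 ± 0.9), while the Osmr mean there was 0.003 FPKM.

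Il6, Lif and Clcf1 stayed near the limit of detection in each group. Il6 had 1, 3 and 5 counts in control and 2, 2 and 7 with IL-4, while IL-4/IL-6 had 2, 0 and 0, IL-13 had 3, 0 and 1, and IL-13/IL-6 had 1, 0 and 1. Each IL-6 group overlapped its cytokine alone, and the transcript of the added cytokine was not detectably raised by it at this depth (adjusted p = 0.271 on top of IL-4 and 0.877 on top of IL-13 in edgeR without the filter). Lif had 2, 3 and 3 counts in control, 0 in all IL-4/IL-6 libraries and at most 1 in any other treated library. Both ranges are at or below 3 counts, so no fold change is given for Lif.

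Clcf1, which encodes a ligand of the CNTF receptor complex, had 7, 4 and 9 counts in control, 0, 0 and 1 with IL-4, and 0 in each library with IL-4/IL-6. IL-13 gave 1 count in each library, and IL-13/IL-6 gave 5, 1 and 0. The control libraries lay above all those of IL-4, IL-4/IL-6 and IL-13. Summed over the group, control was at least 6.29-fold higher than IL-4/IL-6 (20 counts against a floor of 3), and its ratio was 20.0 to IL-4 (95% counting interval 3.20 to 829) and 6.76 to IL-13 (2.01 to 35.5). IL-13/IL-6 overlapped control through replicate 1, which held 5 of its 6 counts, and no ratio is given for it. In a fit without the filter, Clcf1 was called lower with IL-4 (adjusted p = 0.0126) and with IL-4/IL-6 (adjusted p = 0.00188) over control, and was not called with IL-13 (adjusted p = 0.0725) or IL-13/IL-6 (adjusted p = 0.268). The stromal and granulocyte markers were lower in all 4 treated groups. A same-strand gene, AC109138.7, shares 311 exonic bases (8.17%) with Clcf1.

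**Figure D5:**
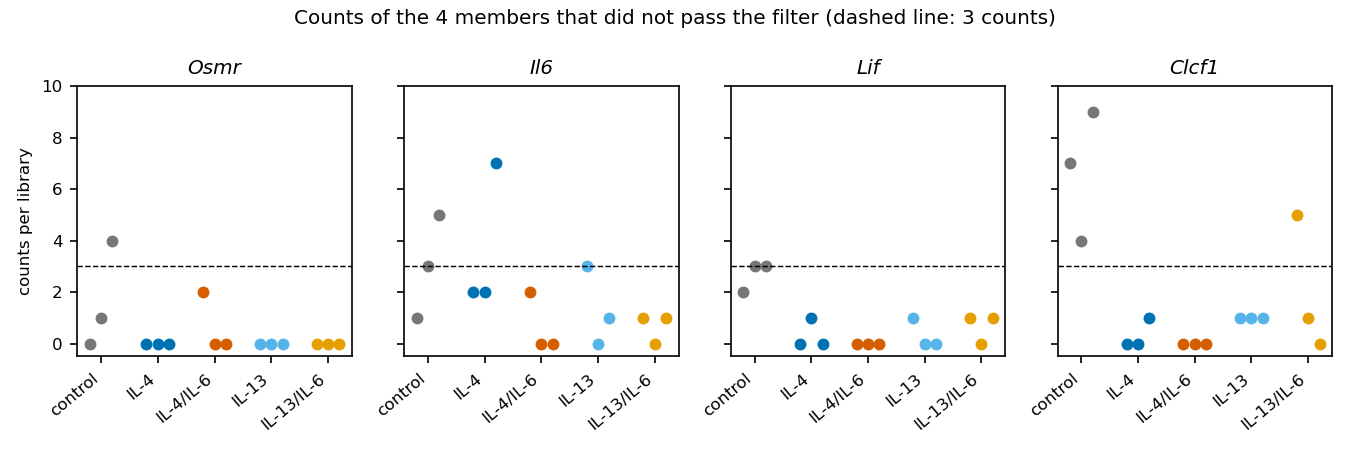
Raw counts per library of Osmr, Il6, Lif and Clcf1 by group, with a point for each of the 15 libraries and a dashed line at 3 counts. Clcf1 reaches 4 to 9 counts in control and at most 1 in the IL-4, IL-4/IL-6 and IL-13 libraries.

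In order of level, neighboring groups could be told apart only in part. For Osm, IL-4/IL-6, IL-13/IL-6, control and IL-4 each differed from the next, and IL-4 and IL-13 had an adjusted p of 0.188. For Lifr, IL-13/IL-6, IL-4/IL-6 and IL-13 differed in turn, while IL-13, control and IL-4 did not separate (adjusted p = 0.501 and 0.479). For Il27ra, the pair that did not separate was IL-4/IL-6 and IL-13/IL-6 (adjusted p = 0.496).

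Of 10 further ligand and receptor genes (Il11, Il27, Ebi3, Ctf1, Ctf2, Cntf, Cntfr, Il11ra2, Il31ra and Il31), 3 passed the filter. None of these was called higher with IL-6, while 2 were called lower on top of IL-4 (background 18.7%) and 1 on top of IL-13 (background 13.5%). Ebi3, the subunit that pairs with the Il27 product to form IL-27, fell with IL-6 on top of IL-4 (log2 fold change -1.53, SE 0.17, adjusted p = 9.55e-07) and of IL-13 (-1.02, SE 0.16, adjusted p = 7.54e-05), the same direction as Il27ra in both comparisons. Il31ra, which pairs with OSMR to bind IL-31, rose with IL-4 from at most 6 counts to 131 to 183 counts (log2 fold change 5.31, adjusted p = 1.45e-08) and with IL-13 (3.60, adjusted p = 1.17e-05), and fell with IL-6 on top of IL-4 (-0.88, adjusted p = 0.0182). On top of IL-13 its log2 change was -0.46 (adjusted p = 0.387). Its partner chain Osmr was at 0 in the IL-4 and IL-13 libraries.

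Downstream of gp130, all 15 listed transducers were tested. With IL-6 on top of IL-4, 6 were higher and 4 lower (background 20.7% and 18.7%, median log2 change 0.08, against 0.04 over all genes), and on top of IL-13, 5 were higher and 2 lower (background 12.1% and 13.5%, median 0.05 against 0.01). Stat3 rose by 1.72 on top of IL-4 (adjusted p = 1.51e-11) and by 1.63 on top of IL-13 (adjusted p = 5.6e-11). Jak2, a kinase bound to gp130, rose by 1.67 and 0.56 (adjusted p = 4.42e-11 and 6.64e-05). Gab1, an adaptor of the SHP2-ERK branch, rose by 1.66 and 2.64 (adjusted p = 3.17e-08 and 6.44e-10), and Mapk3, which encodes ERK1, fell by 1.04 and 0.60 (adjusted p = 9.44e-10 and 1.66e-06). The IL-6 effect differed between IL-4 and IL-13 for 3 of the 15 (background 7.64%). The differences were 1.11 for Jak2 (adjusted p = 1.08e-05), -0.98 for Gab1 (adjusted p = 0.00633) and -0.44 for Mapk3 (adjusted p = 0.00515). IL-4 and IL-13 alone had lowered Stat3 relative to control (log2 fold change -1.20 and -0.90, adjusted p = 5.83e-10 and 2.99e-08), as they did Il6ra.

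Of 8 inhibitors of gp130 signaling, 7 rose and 1 fell with IL-6 on top of IL-4 (background 20.7% higher and 18.7% lower, median log2 change 0.59 against 0.04 over all genes). On top of IL-13, 5 rose and 1 fell (background 12.1% and 13.5%, median 0.37 against 0.01). Socs3 went from 24 to 41 counts with IL-4 to 2054 to 2523 counts with IL-4/IL-6 (log2 fold change 6.25, SE 0.18, adjusted p = 3.99e-14), and rose by 6.39 on top of IL-13 (SE 0.18, adjusted p = 9.82e-14). Dusp6, a phosphatase of ERK, rose by 1.31 on top of IL-4 (adjusted p = 2.63e-11) and by 0.35 on top of IL-13 (adjusted p = 0.000376). Socs1, another inhibitor of Janus kinases, was raised by IL-4 itself (5.16, adjusted p = 7.88e-13) and by IL-13 (3.33, adjusted p = 8.74e-10).

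Of 10 genes known to be induced by STAT3, 7 rose and 1 fell with IL-6 on top of IL-4 (background 20.7% higher and 18.7% lower, median log2 change 1.81 against 0.04 over all genes). On top of IL-13, 8 rose (background 12.1%, median 1.20 against 0.01). Il4ra, the receptor chain shared by IL-4 and IL-13, was the leading gene in both (6.02 and 4.94, adjusted p = 4.58e-18 and 5.06e-17), followed by Fgl2 (4.58 and 4.14, adjusted p = 3.99e-14 and 3.47e-13). The study had examined Il4ra and Socs3 as IL-6 targets. The members and all gene lists were also chosen with earlier results of these data known. Counts of these lists against the background are therefore not independent evidence of direction. Of the 5 genes for proteases that shed the IL-6 receptor and their cofactors, 2 were called lower with IL-6 on top of IL-4 (background 18.7%) and 1 on top of IL-13 (background 13.5%), with medians of -0.10 and 0.06 against 0.04 and 0.01 over all genes. Adam17 was lower on top of IL-4 (-0.19, adjusted p = 0.0123) and of IL-13 (-0.38, adjusted p = 7.19e-05). It had fallen with IL-4 over control (-1.04, adjusted p = 6.7e-11), alongside Il6ra. Adam10 had a mean of 276 normalized CPM with IL-4 (270 to 285) and 196 with IL-4/IL-6 (184 to 211), a larger fall than that of Adam17. With IL-13 and IL-13/IL-6 its means were 261 and 237, and the libraries overlapped. Of 7 regulators of Il6 mRNA decay, 3 rose and 2 fell on top of IL-4 (background 20.7% and 18.7%), and 3 rose and 1 fell on top of IL-13 (background 12.1% and 13.5%), with medians of 0.13 and 0.11 against 0.04 and 0.01 over all genes. Arid5a, which protects Il6 mRNA, rose by 3.58 and 3.27 (adjusted p = 6.31e-14 and 5.1e-13), and Zfp36, which promotes the decay of such mRNAs, by 0.75 and 1.38 (adjusted p = 1.37e-08 and 1.31e-11), while Il6 itself stayed at 0 to 2 counts in the IL-6 libraries.

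The genes nearest in pattern to the 4 members with the widest range were found by the Euclidean distance of log2 CPM over the 5 group means, centered on each gene's mean, among 13937 other genes. For Osm these were Cnrip1 (distance 0.37), Dnase1l3 (0.66) and Cables1 (0.67). Cnrip1 had 83.0 normalized CPM in IL-4/IL-6 and 28.2 in IL-13/IL-6, against 7.25 to 10.3 in the groups without IL-6. For Il27ra they were Tnfrsf12a, Angptl2 and Gm26762 (0.37 to 0.38), and for Il6st they were St7, Stt3b and Tceal8 (0.18 to 0.22). For Lifr they were Pf4 (0.37), Pcdhb17 (0.55) and Spp1 (0.55). Pf4, known as a platelet chemokine and one of the megakaryocyte markers above, had 390.1 normalized CPM in IL-13/IL-6 and 75.5 in IL-13. These distances describe 5 means each and carry no test.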

How the data were processed

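RNA of 15 BMDM libraries had been sequenced, and the authors deposited raw counts per gene for 53465 Ensembl identifiers, without normalization, and FPKM values of 26080 genes, which the authors calculated from these counts (268061 values recomputed, largest relative difference 7.35e-07). The submitters' processing notes name GRCm38, CASAVA, Bowtie2 2.2.3, HISAT2 2.1.0, TopHat2 and DESeq2 without their roles. The annotation and the counting tool are not given in the sources used here. Symbols were found for 53274 identifiers.

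The main test was that of edgeR 4.0.16, run in R 4.3.3, with filterByExpr (minimum count 10), TMM factors, and the quasi-likelihood F-test in one fit of 5 groups without covariates, with Benjamini-Hochberg adjustment over the 13938 genes tested. A gene was called at an adjusted p under 0.05. The SE was derived from the fold change and the F statistic, and 95% intervals from the SE. Levels of groups are compared in normalized CPM, and levels of genes in the deposited FPKM. Totals of 17001352 to 18918686 counts set the precision, and a count of 0 was read as at most 3 counts. Alternatives were RLE and upper-quartile factors, no filter, a replicate block, fits of only the groups compared, DESeq2 1.42.0 (Wald test), FPKM with TMM-scaled totals for the levels, and the omission of each library. One gene of a pathway list and one detail of the mice are not reported here. The members and all gene lists were chosen with earlier results of these data known. All 10 members are described, and at most 4 genes of a pathway list are named, those with the smallest adjusted p in a comparison described. Nearest patterns are given for the 4 tested members with the widest range of group means (prior count 2).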

Additional observations from a re-analysis of the deposited data

Results flagged for a closer look

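The rise of Osm with IL-6 differed between the cytokine backgrounds: IL-6 raised it more on top of IL-4 than on top of IL-13, by 1.70 on the log2 scale (SE 0.16, adjusted p = 2.66e-06 for the interaction in edgeR). All 3 IL-4/IL-6 libraries (47.3 to 56.1 normalized CPM) lay above all 3 IL-13/IL-6 libraries (12.9 to 13.3). The value was between 1.61 and 1.75 in all alternatives run. IL-4 was given at 10 ng/ml and IL-13 at 40 ng/ml, so cytokine and dose cannot be told apart here.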

How the results depend on the processing

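Of the changes of single members under the alternatives, 1103 kept their direction and side of the threshold, 12 gained a call, 14 lost one and 5 changed sign, none of the last with a call in either fit. The sign changes were Il6ra with IL-6 on top of IL-4 (-0.0059 with upper-quartile factors, and -0.035 to 0.16 with one library left out) and the difference of the IL-6 effects on Il11ra1 (-0.20 to 0.047 with one library left out, with the sign changed without IL-4/IL-6 replicate 1 or 3 or IL-13 replicate 2). The number of members whose IL-6 effect differed between IL-4 and IL-13, 1, became 2 with upper-quartile factors, without the filter, with the replicate block and with DESeq2, and 1 to 3 with one library left out, through Il6st or Il27ra. With one library left out, the other counts of called members were 3 to 4 for IL-13 over control and for IL-4 over IL-13, 5 to 6 for either IL-6 group over control, and 5 elsewhere. Without the filter, the fall of Osm with IL-4 had an adjusted p of 0.0531 and the rise of Il6st with IL-13 one of 0.000496. The change of Il6st with IL-13 over control also passed the threshold with only the groups compared (adjusted p = 0.0336) and without IL-4/IL-6 replicate 2 (0.0131). The call of Il11ra1 in IL-4/IL-6 over control was lost with upper-quartile factors (adjusted p = 0.12) and with only the groups compared (0.0814). With TMM-scaled totals, Il6ra was at 15.7 FPKM in control and 6.64 in IL-13/IL-6, and Osm at 22.5 in IL-4/IL-6. Upper-quartile factors moved the share of higher genes among all called from 52.6% to 39.0% for IL-6 on top of IL-4 and from 42.2% to 31.7% for the difference of the IL-6 effects. The causes were not tested.

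Replicate numbers did not pair the libraries: deviations of same-numbered libraries correlated between -0.276 and 0.163, over 0.1 in 3 of 30 pairs. The replicate block changed 2 of 54 calls of members, Il11ra1 in IL-4/IL-6 over control (0.28, adjusted p = 0.056) and the difference of the IL-6 effects on Il27ra (-0.66, adjusted p = 0.0412). Osmr, Il6, Lif and Clcf1 are limited by depth.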
